A study of Homo sapiens with 6 samples.

Results

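The ERBB receptors, their ligands and the feedback inhibitor of the receptors were followed in IKPRAB36 cells cultured with or without the progestin medroxyprogesterone acetate (MPA). The members were 10 genes: the receptors EGFR, ERBB2, ERBB3 and ERBB4, the ligands NRG1, NRG2, AREG, EREG and HBEGF, and the inhibitor ERRFI1. They were chosen by name, with earlier results of these data known. Every probe set annotated to a member alone was taken, which gave 37 probe sets of 9 genes, out of 54613 probe sets and 19755 genes in all. AREG (amphiregulin) was not analysed here, because the annotation used names no probe set for it. IKPRAB36 is an Ishikawa endometrial cancer line stably transfected with both progesterone receptor isoforms, PRA and PRB, so that its progesterone receptors come from transgenes in a single engineered line. The 3 MPA arrays held RNA of cells kept for 48 h with 1 nM MPA, and the 3 control arrays that of cells kept for 48 h without it. Medium of both groups contained charcoal stripped serum and the antibiotics neomycin and hygromycin.

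ERBB receptors are tyrosine kinases of the cell membrane that pair with one another when a ligand binds and then activate the RAS-ERK and PI3-kinase pathways. ERBB2 has no known ligand of its own and ERBB3 has little kinase activity, so both act through a partner. EGFR is bound by EREG, HBEGF and AREG, and ERBB3 and ERBB4 by the neuregulins NRG1 and NRG2, while HBEGF and EREG also bind ERBB4. ERRFI1, also called MIG6, binds the kinase domain of the receptors and blocks it, and in mice its loss in the uterus leads to endometrial overgrowth.

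Signals are RMA values on the log2 scale. Calls were made with limma at a p under 0.05 after Benjamini-Hochberg adjustment over all probe sets. A small fold minimum taken from the study's methods was also applied and altered no count. The labels do not say that the 3 arrays of a group came from separate cultures, so the p-values reflect only how far these arrays scatter, and that scatter may be technical. Different probe sets differ in brightness for the same amount of RNA, so a brighter probe set was not taken to mean more RNA. Brightness served to choose the probe set that stands for a gene and to mark dim signals. A change in the number of cells that express a gene and a change in RNA per cell cannot be told apart in RNA pooled from a culture. Array medians lay between 5.16 and 5.28, and a signal under them may be that of a gene not expressed. The line carried its labelled traits: 6 of 7 epithelial markers lay above the median of every array, and the progesterone receptor probe set (PGR) was at 10.47, 10.56 and 11.08 on the MPA arrays and 10.25, 10.24 and 10.17 on the control arrays. None of the 14 markers of stromal, endothelial and blood cells was called, and 8 of them lay under every array median. The leukocyte marker PTPRC was among these 8. The leukocyte markers CD3E and CD79A, the endothelial marker PECAM1 and the stromal marker DCN lay above every array median. COL1A1 and COL3A1 were also above the medians, and SAM, the permutation-based test of the study's methods, called both lower with MPA, as it did the epithelial markers EPCAM and CDH1. The mean signal of the 6 stromal markers was 5.79 to 6.0 on the MPA arrays and 5.92 to 6.20 on the control arrays, and that of the 7 epithelial markers 9.70 to 10.02 on the MPA arrays and 9.81 to 10.03 on the control arrays. On MPA 3 the poly-A spike controls averaged 5.83, while the remaining arrays had 6.91 to 7.58, and its 18S ribosomal RNA signal was 6.99, while theirs was 7.64 to 8.30. The part of these differences in the results was not tested. Without MPA 3 the 3 NRG1 calls were kept and the calls of ERBB2, ERBB4 and ERRFI1 were lost. Those of ERBB2 and ERRFI1 were lost whichever array was left out, and that of ERBB4 without any but control 2. Among these lost calls, the changes of ERBB2 216836_s_at and ERRFI1 were smallest without MPA 3, at 0.67 and -0.54. That of ERBB4 206794_at was smallest without another array.

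The ligand gene NRG1 and the inhibitor gene ERRFI1 were lower with MPA, and the receptor genes ERBB2 and ERBB4 were higher. Of the 37 probe sets, 4 were called lower, 3 of NRG1 and the one of ERRFI1, where 0.813% of all probe sets were lower. Another 2 were called higher, 1 of ERBB2 and 1 of ERBB4, where 1.21% of all probe sets were higher. Together 2.03% of all probe sets were called, 663 higher and 444 lower, and scaling by housekeeping genes gave 558 higher and 596 lower. The member calls fell on 4 of 9 measured members, and no probe set of EGFR, ERBB3, NRG2, EREG or HBEGF passed. Scaling by housekeeping genes ended both higher calls, and of the member calls only those of NRG1 208241_at and 206237_s_at held whichever array was left out. Leaving out 1 array also moved the calls over all probe sets. They were 353 higher and 176 lower without MPA 1, and 362 and 156 without control 3. Without MPA 3 they were 647 and 420, and without control 2 they were 725 and 465. Probe sets of 1 gene share their target, so that the 3 NRG1 calls are not separate evidence. At an unadjusted p under 0.05 there were 15 member probe sets, against 10.3% of all, and SAM called 4 higher and 4 lower, against 2.4% and 1.59%. The MPA and control arrays did not overlap in 19 of the 37 probe sets, in 12 of them with MPA on the higher side, against 15.4% of all probe sets. The median change over the 37 probe sets was 0.16 on the log2 scale, and 0.01 over all probe sets tested. Because the members were chosen with earlier results of these data known, counts above these shares are no test of the family.

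**Figure D1:**
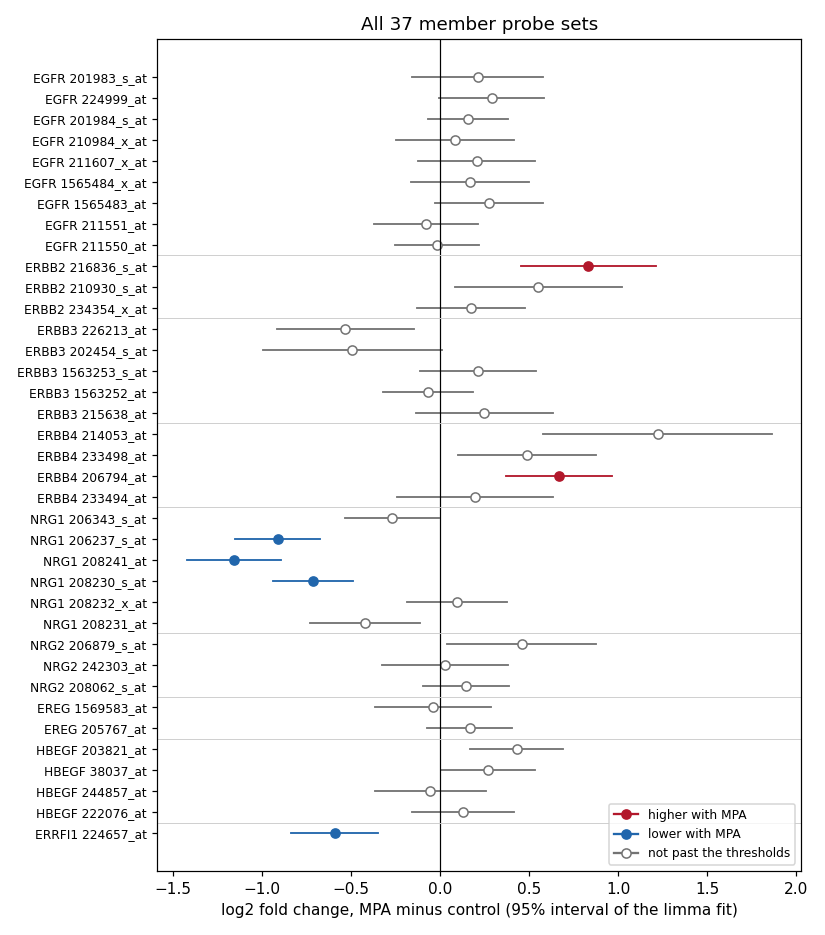
Change in signal (log2, MPA minus control, 3 arrays each) of the 37 member probe sets, grouped by gene and ordered by brightness within a gene, with 95% intervals of the limma fit. Filled red points were called higher (2) and filled blue points lower (4). The NRG1 probe sets run from -1.16 to 0.10 and the ERBB4 probe sets from 0.20 to 1.22.

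MPA is a ligand of the progesterone receptor. The RefSeq promoters of ERBB2, ERBB4 and ERRFI1 were searched for the hexamer AGAACA and its reverse complement TGTTCT, which is 1 arm of the hormone response element bound by the progesterone, glucocorticoid and androgen receptors. The windows run from 250 bases before to 50 bases after a RefSeq start site on GRCh38.p14, 5′ to 3′ on the gene's strand, with the hexamer in capitals. The ERBB2 window is chr17:39687844-39688143 on the plus strand, the ERBB4 window chr2:212538753-212539052 on the minus strand and the ERRFI1 window chr1:8026260-8026559 on the minus strand. They are shown because these genes were called in opposite directions, ERBB2 and ERBB4 higher and ERRFI1 lower. NRG1, the other member called lower, had no window in the RefSeq set used and was not searched. The same holds for ERBB3.
ERBB2: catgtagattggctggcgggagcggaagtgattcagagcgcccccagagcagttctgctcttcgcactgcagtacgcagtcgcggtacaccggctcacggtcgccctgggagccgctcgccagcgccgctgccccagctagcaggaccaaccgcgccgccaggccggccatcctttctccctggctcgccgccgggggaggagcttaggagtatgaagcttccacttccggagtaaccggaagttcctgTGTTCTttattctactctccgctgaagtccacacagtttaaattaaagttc
ERBB4: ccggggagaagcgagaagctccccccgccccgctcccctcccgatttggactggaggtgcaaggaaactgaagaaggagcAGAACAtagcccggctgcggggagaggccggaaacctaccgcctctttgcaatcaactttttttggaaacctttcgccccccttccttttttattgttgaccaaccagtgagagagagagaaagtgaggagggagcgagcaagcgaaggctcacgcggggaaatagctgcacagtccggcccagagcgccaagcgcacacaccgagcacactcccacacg
ERRFI1: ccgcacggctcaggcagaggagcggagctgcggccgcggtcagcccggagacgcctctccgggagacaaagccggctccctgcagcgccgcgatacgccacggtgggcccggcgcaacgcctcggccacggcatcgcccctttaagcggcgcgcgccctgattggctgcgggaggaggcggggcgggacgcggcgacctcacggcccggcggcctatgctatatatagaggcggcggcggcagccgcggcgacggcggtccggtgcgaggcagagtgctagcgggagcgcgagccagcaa

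The hexamer stood once in the ERBB2 window, at position -1 from the start site, and once in the ERBB4 window, at position -170 from it. The ERRFI1 window held none. Each of these genes had a single window in the RefSeq set used, and any other start site was not searched. Of 35116 RefSeq promoters of 300 bases, 14.8% held the hexamer on at least 1 strand, so a match is common. It was also absent from the promoters of HBEGF, EREG and NRG2 and from the first of the EGFR windows, while the second EGFR window, at chr7:55109589-55109888, held 1. The full element, AGAACA and TGTTCT with 3 bases of any kind between them, reads the same on both strands. It stood in none of the member windows and in 1 of the 35116. The ERRFI1 window had 74.7% G and C, against 60.7% in the ERBB2 window and 59% in the ERBB4 window. A match is a description of the letters and no evidence of binding.

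ERBB2, the receptor that serves as the preferred partner of the other family members, had signals of 10.09, 10.01 and 10.53 on the MPA arrays, against 9.54, 9.15 and 9.43 on the control arrays (probe set 216836_s_at). All 3 MPA arrays lay above all 3 control arrays, and MPA 3 was the highest. The change was 1.78-fold, or 0.83 on the log2 scale (standard error 0.16, adjusted p = 0.0439 from limma). This call sat close to the threshold: leaving out any single array ended it, with adjusted p-values of 0.0611 to 0.168, although the change stayed between 0.67 and 0.93. A dimmer ERBB2 probe set, 210930_s_at, was at 6.0, 5.50 and 5.29 on the MPA arrays, and at 5.13, 4.74 and 5.28 on the control arrays. Its groups were narrowly separate, MPA 3 lying just above control 3, and its change of 0.55 did not pass (adjusted p = 0.364 from limma). The last, 234354_x_at, lay under every array median and changed by 0.18. Its change was smaller than that of 216836_s_at by 0.66 (standard error 0.15), which did not pass the test of that difference (adjusted p = 0.134).

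ERBB4, a neuregulin receptor with full kinase activity, had a change above 0 in all 4 probe sets, and 1 of them passed. Its brightest probe set, 214053_at, had signals of 6.45, 6.69 and 6.39 on the MPA arrays, against 5.14, 6.0 and 4.73 on the control arrays. The MPA arrays lay close together above every control array, while control 2 stood well above the other controls. Control 1 and control 3 lay under their array medians, where a gene may not be expressed. The change was 2.33-fold (1.22 on the log2 scale, standard error 0.28), and it did not pass at an adjusted p of 0.0860 from limma. Without control 2 the change was 1.57 and passed (adjusted p = 0.00299), and SAM called it with all arrays. Calls over all probe sets also rose without control 2, from 663 higher and 444 lower to 725 and 465.

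The ERBB4 probe set that passed was 206794_at, with 4.86, 4.76 and 5.02 on the MPA arrays and 4.21, 4.4 and 4.03 on the control arrays. The groups did not overlap, and both lay under the array medians. Its change was 0.67 on the log2 scale (standard error 0.13, adjusted p = 0.0398 from limma), and leaving out any array but control 2 ended the call, with adjusted p up to 0.202. Probe set 233498_at had 4.71, 5.19 and 4.66 on the MPA arrays, against 4.17, 4.38 and 4.57 on the control arrays. These groups did not overlap either, and the change of 0.49 did not pass (adjusted p = 0.318). In 233494_at, the dimmest, MPA arrays read 3.31, 3.02 and 3.76 and control arrays 3.15, 2.98 and 3.37, which overlap. The effects in the other ERBB4 probe sets were 0.55 to 1.02 smaller than in 214053_at, and none of these differences passed the test (adjusted p of 0.479 to 0.532). With the probe sets of each gene averaged before the fit, ERBB4 rose by 0.64 on the log2 scale (adjusted p = 0.0124 from limma).

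EGFR, the receptor of EGF, HBEGF and EREG, was measured by 9 probe sets, and none was called. The brightest, 201983_s_at, was at 10.31, 10.06 and 9.78 on the MPA arrays and 9.84, 10.03 and 9.65 on the control arrays. The groups overlap, and the 95% interval of the change, -0.15 to 0.58 on the log2 scale, takes in 0. Over the 9 probe sets the change ran from -0.08 to 0.29, and 7 were above 0. In 224999_at and 201984_s_at the MPA arrays lay above the control arrays, with changes of 0.29 and 0.16 and adjusted p-values of 0.495 and 0.710.

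ERBB3, the neuregulin receptor that depends on a partner for kinase activity, had 5.94, 5.96 and 5.96 on the MPA arrays, against 6.65, 6.08 and 6.72 on the control arrays (brightest probe set, 226213_at). The MPA arrays were nearly equal and below every control array, with control 2 the nearest to them. The change was -0.53 on the log2 scale (95% interval -0.92 to -0.15), which did not pass (adjusted p = 0.253 from limma). Without control 2 it was -0.73 and passed (adjusted p = 0.0175). The next probe set, 202454_s_at, gave 5.22, 4.96 and 5.24 on the MPA arrays and 6.06, 5.12 and 5.72 on the control arrays, with a change of -0.49 and overlapping groups. The other 3 ERBB3 probe sets were dim and changed by -0.07 to 0.25. Of these, 1563252_at and 215638_at lay under every array median, and 1563253_s_at lay above it on 2 MPA arrays and 1 control array. The difference of the effects of these 3 from that of 226213_at was 0.46 to 0.78, and none of the differences passed (adjusted p of 0.125 to 0.416).

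**Figure D2:**
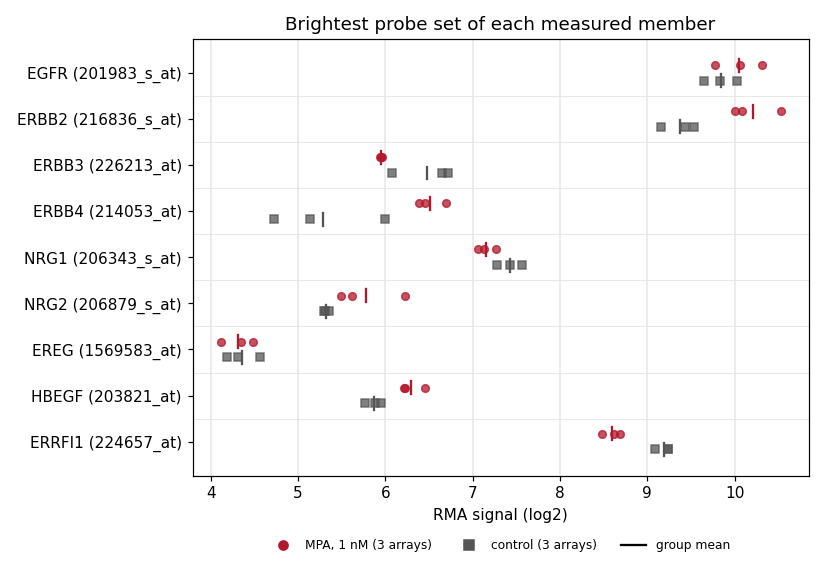
RMA signal (log2) on each of the 3 MPA arrays (red circles) and 3 control arrays (grey squares) for the brightest probe set of the 9 measured members, with vertical marks at group means. The groups do not overlap for ERBB2, ERBB3, ERBB4, NRG1, NRG2, HBEGF and ERRFI1, and of these ERBB2 and ERRFI1 were called. Over all probe sets 15.4% did not overlap, and that share was not counted for the brightest probe sets alone.

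NRG1, a ligand of ERBB3 and ERBB4 that is made in many isoforms, fell in 3 of its 6 probe sets. The annotation ties the 6 to 5 transcript records, and which isoforms each probe set reads was not analysed here. The largest fall was in 208241_at, with 6.08, 6.35 and 6.06 on the MPA arrays, against 7.26, 7.36 and 7.34 on the control arrays. The 3 MPA arrays lay well below the tightly grouped controls. NRG1 fell by 1.16 on the log2 scale here (standard error 0.12, adjusted p = 0.00151 from limma).

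In 206237_s_at the MPA arrays read 6.48, 6.44 and 6.45 and the control arrays 7.46, 7.41 and 7.23, a fall by 0.91 (standard error 0.10, adjusted p = 0.00304). Both groups were again tight and far apart. In 208230_s_at the values were 6.09, 6.03 and 6.20 on the MPA arrays, against 6.84, 6.81 and 6.81 on the control arrays, a fall by 0.71 (standard error 0.10, adjusted p = 0.00790). The 208241_at and 206237_s_at calls held whichever array was left out, with adjusted p-values no higher than 0.0161 and 0.0252. The call of NRG1 208230_s_at was lost without control 3 or MPA 1 (adjusted p = 0.0618 and 0.0587).

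The other NRG1 probe sets gave smaller changes. The brightest, 206343_s_at, was at 7.27, 7.06 and 7.13 on the MPA arrays and 7.56, 7.42 and 7.28 on the control arrays. The groups were narrowly separate, MPA 1 lying just below control 3, and the change of -0.27 did not pass (adjusted p = 0.479). In 208231_at, under every array median, the values were 3.03, 2.83 and 3.19 with MPA and 3.46, 3.27 and 3.59 in controls, with a change of -0.42 (adjusted p = 0.256). In 208232_x_at, whose suffix marks probes that may bind other transcripts, MPA arrays read 5.96, 5.73 and 6.04 and control arrays 5.90, 5.68 and 5.86, overlapping, with a change of 0.10.

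Whether NRG1 probe sets responded unequally was tested on the per-array difference between a probe set and the brightest one of its gene, in a limma fit over 21356 such differences, of which 0.871% passed. Among the 28 member differences, 1 passed: 206237_s_at fell by 0.64 more than 206343_s_at (standard error 0.11, adjusted p = 0.0419). The difference for 208241_at was larger, -0.89, with a wider error (standard error 0.16, adjusted p = 0.0617). For 208230_s_at it was -0.44, for 208232_x_at 0.36 and for 208231_at -0.15, none of which passed. The call was lost whichever array was left out. With all 6 probe sets averaged, NRG1 fell by 0.56 (adjusted p = 0.00970 from limma).

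**Figure D3:**
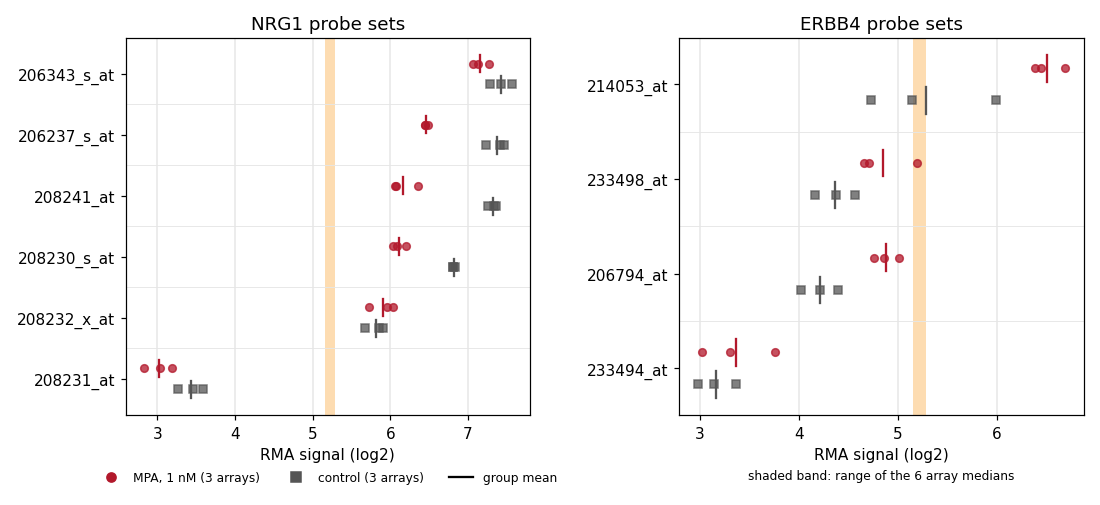
RMA signal (log2) of every NRG1 probe set (left) and every ERBB4 probe set (right) on the 3 MPA arrays (red circles) and 3 control arrays (grey squares), with marks at group means and a shaded band for the range of the 6 array medians, 5.16 to 5.28. For NRG1, 206237_s_at, 208241_at and 208230_s_at show separate groups above the band, while ERBB4 206794_at lies below it in both groups.

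NRG2, a second neuregulin, was at 5.62, 5.50 and 6.23 on the MPA arrays and 5.36, 5.31 and 5.30 on the control arrays in its brightest probe set, 206879_s_at. MPA 3 stood above the others, and the change of 0.46 did not pass (adjusted p = 0.414 from limma). The other NRG2 probe sets changed by 0.03 and 0.15. EREG, an EGFR and ERBB4 ligand, lay under the array medians in both probe sets on all arrays. Its values were 4.35, 4.11 and 4.48 on the MPA arrays and 4.57, 4.18 and 4.32 on the control arrays in the brighter probe set, which overlap.

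HBEGF, a ligand of EGFR and ERBB4 known in the uterus for its part in embryo attachment, had 6.45, 6.23 and 6.21 on the MPA arrays, against 5.77, 5.88 and 5.95 on the control arrays (probe set 203821_at). All MPA arrays were above all control arrays. The change was 1.35-fold, or 0.43 on the log2 scale (standard error 0.11), and it did not pass limma (adjusted p = 0.143), while SAM called it higher, as it did 2.4% of all probe sets. A further HBEGF probe set without overlap, 38037_at, changed by 0.27 (adjusted p = 0.478). The remaining HBEGF probe sets, 244857_at and 222076_at, lay under the array medians and changed by -0.05 and 0.13.

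ERRFI1, the inhibitor that binds ERBB kinase domains, had 8.62, 8.69 and 8.49 on the MPA arrays, against 9.09, 9.24 and 9.24 on the control arrays. The MPA arrays lay below every control array with little spread in either group. ERRFI1 fell by 0.59 on the log2 scale (standard error 0.11, adjusted p = 0.0294 from limma). It had a single probe set, and the call was lost whichever array was left out (adjusted p of 0.0580 to 0.178), with the change between -0.64 and -0.54.

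The genes with the profile over the 6 arrays closest to each called member were found by the root mean square difference of log2 signals after centring each probe set on its mean. For ERBB2 these were CST3, SLC6A12 and HELZ2 (differences of 0.03 to 0.04). For ERBB4 206794_at they were ZNF585A, SLC26A9 and FAM114A1 (0.08 to 0.10), for NRG1 206237_s_at SYK, SSX3 and FRMD4A (0.07 to 0.09) and for ERRFI1 GAS2, TTC8 and MAML2 (0.04 to 0.06). This is a description of 6 values per gene.

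Of 61 other genes of the pathway, 54 had a probe set of their own, and in the brightest one 3 were higher and 1 lower with MPA, against 1.75% and 1.16% of all genes. The median change of the 54 was 0.07, and that of all genes 0.02. None of 5 other ligands and neither sheddase passed. TGFA, a ligand of EGFR, was at 6.57, 6.44 and 6.83 on the MPA arrays and 6.71, 6.50 and 6.70 on the control arrays. NRG4, a ligand of ERBB4, was at 6.34, 6.72 and 6.22 with MPA and 5.99, 6.50 and 5.89 in controls, overlapping in spite of a change of 0.30. EGF, BTC and NRG3 lay under the array medians on every array. ADAM10 and ADAM17, the metalloproteases that release ERBB ligands from the membrane, changed by 0.06 (95% interval -0.47 to 0.58) and -0.08 (-0.31 to 0.15).

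Among 18 measured adaptors and enzymes none was called by limma. SOS2, an exchange factor that activates RAS, was at 9.62, 9.83 and 9.30 on the MPA arrays and 8.06, 8.98 and 8.31 on the control arrays. The groups were apart, and the change of 1.13 did not pass (adjusted p = 0.0574). PIK3R1, a regulatory subunit of PI3-kinase, was at 8.19, 8.38 and 7.42 on the MPA arrays and 6.84, 7.37 and 6.82 on the control arrays. Its groups were narrowly separate, between MPA 3 and control 2, and its change of 0.99 did not pass (adjusted p = 0.137). SAM called both higher. Limma also called SOS2 212870_at higher with an intensity trend (adjusted p = 0.0338) and with dim probe sets omitted (adjusted p = 0.0445).

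Among 19 negative regulators and trafficking proteins 2 were called higher and none lower by limma, against 1.75% and 1.16% of all genes. SAM called 3 higher and 1 lower, against 2.4% and 1.59% of all probe sets. EPS15, a clathrin adaptor of EGFR endocytosis, had 9.48, 9.62 and 9.20 on the MPA arrays, against 8.08, 8.59 and 8.33 on the control arrays, a 2.14-fold change (adjusted p = 0.0112). LRIG1, a membrane protein that promotes the breakdown of ERBB receptors, had 8.71, 8.57 and 8.98, against 8.10, 7.86 and 8.16 in controls, a 1.64-fold change (adjusted p = 0.0420). Both had separate groups, EPS15 with the wider gap. EPS15 lost its call without control 3 or MPA 1 (adjusted p up to 0.0704) and LRIG1 211596_s_at lost it whichever array was left out (up to 0.161) and after a further quantile normalization (0.0561). EPS8, an adaptor phosphorylated by EGFR, had 9.18, 9.25 and 8.92 on the MPA arrays, against 8.09, 8.70 and 8.25 on the control arrays. Its groups were separate, and its change of 0.77 passed SAM but not limma (adjusted p = 0.0708). CBLB, a ubiquitin ligase that marks activated receptors for breakdown, went the other way, with 6.70, 6.54 and 6.11 on the MPA arrays, against 7.36, 6.94 and 7.09 on the control arrays. These groups did not overlap either, and the change of -0.68 passed SAM but not limma (adjusted p = 0.137).

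Of 10 ERK response genes, which rise when receptor signaling reaches the nucleus, 1 fell and 1 rose, against 1.16% lower and 1.75% higher of all genes. PHLDA1 had 9.08, 9.12 and 9.29 on the MPA arrays, against 10.64, 10.15 and 10.71 on the control arrays. The gap between the groups was wider than the spread of either. PHLDA1 fell by 1.34 on the log2 scale (standard error 0.16, adjusted p = 0.00368 from limma), and the call held whichever array was left out (adjusted p up to 0.0308). EGR1, a transcription factor, had 7.92, 7.86 and 7.98 with MPA and 7.15, 6.57 and 7.16 in controls, a 1.94-fold rise (adjusted p = 0.0227) that lost its call when any array but control 2 was left out (adjusted p up to 0.115). FOS, an early response transcription factor, lay under the array medians, with 4.72, 4.74 and 4.99 on the MPA arrays and 4.35, 4.26 and 4.27 on the control arrays. Its groups did not overlap, and the change of 0.52 missed the limma threshold (adjusted p = 0.0647). SAM called FOS 209189_at higher, and limma did so after a further quantile normalization (adjusted p = 0.0426). The other 7 genes passed neither limma nor SAM.

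**Figure D4:**
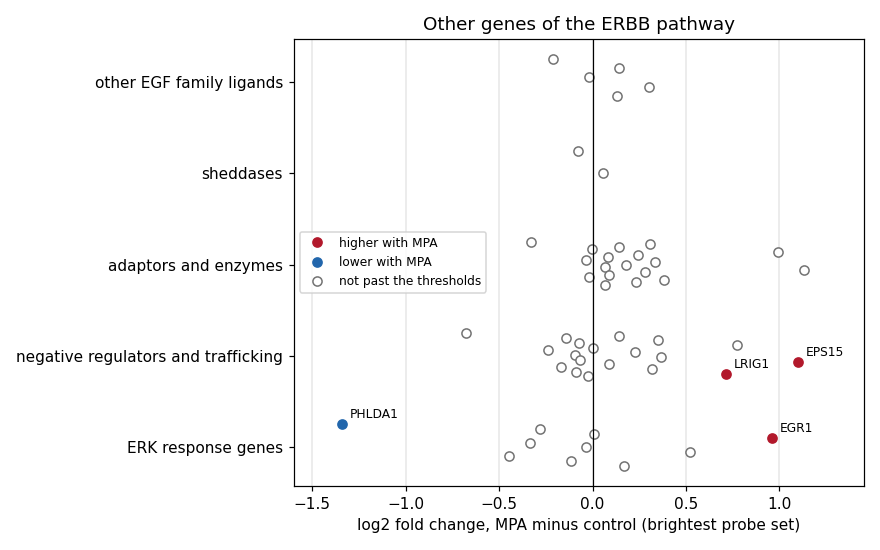
Change in signal (log2, MPA minus control, 3 arrays each) of the brightest probe set of 54 other genes of the ERBB pathway in 5 groups, with one point per gene. Filled red points (EPS15, EGR1 and LRIG1) were called higher and the filled blue point (PHLDA1) lower; no ligand, sheddase, adaptor or enzyme was called.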

How the data were processed

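RNA from 3 MPA and 3 control samples of IKPRAB36 cells was hybridized to Affymetrix U133 Plus arrays. The values deposited by the authors are log2 signals from RMA (background correction, normalization between arrays and a summary per probe set), with a software version not given in the sources used here. They were used as they stand. Of 54675 probe sets, 62 Affymetrix controls were left out of the tests. Names come from the annotation of the platform, updated by Entrez identifier: 41111 probe sets had 1 gene, 1781 several and 11721 none. The brightest probe set over the 6 arrays stood for a gene, and members kept all of theirs.

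MPA arrays were set against control arrays by limma 3.58.1 (R 4.3.3) in a two-sided test without covariates. Its p-values were adjusted by Benjamini-Hochberg over 54613 probe sets. Precision is limited by the number of arrays, and an exact permutation test of 3 against 3 cannot give a p under 0.1. SAM was written from its description (delta 0.53, 20 relabelings). The steps were tested on simulated data. Alternatives were a replicate block, SAM, an intensity trend, no fold minimum, omission of dim probe sets, a further quantile normalization, scaling by 9 housekeeping genes, omission of each array, and averaged probe sets.

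The members, lists and tests were chosen with earlier results of these data known. Named were all members (every NRG1 and ERBB4 probe set, the brightest and any called of the others), the other ligands, sheddases and called genes of the pathway list, and the 3 closest profiles per called member. Further probe sets of other members, and the pathway genes that SAM but not limma called (SOS2, PIK3R1, EPS8, CBLB, FOS), were named after their values were seen. Promoter sequences are from RefSeq (GRCh38.p14), whose table matched 8 members. No other coordinates are given, since no build is named for the array annotation.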

Additional observations from a re-analysis of the deposited data

How the results depend on the processing

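No member probe set or pathway gene that was called changed direction under any alternative run. The count of member probe sets called higher was 2. It was 4 with SAM, 1 with dim probe sets omitted, 1 after a further quantile normalization (ERBB2 216836_s_at at an adjusted p of 0.0553), 0 after scaling by housekeeping genes (ERBB2 216836_s_at at 0.0540, ERBB4 206794_at at 0.0709) and 1 gene with probe sets averaged (ERBB4, with ERBB2 at 0.0599). The count called lower was 4, and 2 genes, NRG1 and ERRFI1, with probe sets averaged. Leaving out each array in turn gave 0 to 2 higher and 2 to 4 lower member probe sets, 0 differences between probe sets of a member in place of 1, and 0 to 4 higher and 1 lower pathway genes. The 2 higher probe sets were seen only without control 2 and were both of ERBB4, while without MPA 3 none was higher and 3 were lower, all of NRG1. SAM called 7 pathway genes higher and 2 lower, where limma called 3 and 1. Over all probe sets SAM also called more, 1313 higher and 868 lower, where limma called 663 and 444. After the further quantile normalization the pathway count stayed at 3 higher, but LRIG1 211596_s_at was lost (adjusted p = 0.0561) and FOS 209189_at gained (0.0426).

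The numbers in the sample titles were not shown to pair the arrays: deviations from the group means of same-numbered arrays correlated at -0.02 to 0.52, and not every array correlated best with its own number. With the replicate number as a block, called probe sets of the whole array were 1208 higher and 825 lower, in place of 663 and 444. Those of members were 3 higher, with ERBB4 214053_at added (adjusted p = 0.00145), and 4 lower. In that replicate block fit 7 pathway genes were higher, with SOS2 212870_at (adjusted p = 0.00110), PIK3R1 212240_s_at (0.00272), EPS8 202609_at (0.00695) and FOS 209189_at (0.0397) added, and 2 lower, with CBLB 209682_at (0.0161) added, and 2 differences between probe sets passed, as they did with an intensity trend. ERBB4 206794_at, ERBB3 1563252_at and 215638_at, NRG1 208231_at and EREG lie under the array medians, where signal over background limits what a change can show. For ERBB4 214053_at this holds on control 1 and control 3.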
